A study of Mus musculus with 16 samples.

Results

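Adipocyte transcripts were followed in macrophages sorted from mouse perigonadal fat. The set was a list of 10 genes by which fat cells are recognised: Adipoq, Car3, Ces1d, Cfd, Retn, Plin1, Cidec, Pck1, Scd1 and Lep. A gene was measured through every probe set (a group of short probes on the array) annotated with its symbol alone. This gave 16 probe sets of 8 genes, out of 34945 single-symbol probe sets of 18193 genes. Cfd and Plin1 had no such probe set in the annotation used and were not analysed here.

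The series holds 16 arrays, 4 in each of 4 groups of macrophages from perigonadal fat of mice 12 to 14 weeks old. FB cells carried the macrophage antigen F4/80 and the integrin CD11b and lacked CD11c, while FBC cells carried all 3. Each type was sorted from lean C57BL/6J mice with intact leptin (Lep +/+) and from obese C57BL/6J mice lacking functional leptin (Lep ob/ob). Before sorting, the fat was digested with Liberase and the pelleted stromal vascular cells were collected, and the small RNA yields were amplified before labelling. The design text speaks of 4 lean and 4 obese mice. It does not say whether an FB and an FBC array of the same number share a mouse, and the sex is not stated. The cell type tag of the FBC samples reads CD11c-+, whereas their description gives CD11c+, which was used.

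White adipocytes store triglyceride in a single large lipid droplet and release hormones called adipokines, among them adiponectin, leptin and resistin. Intact adipocytes float when digested fat is centrifuged, whereas macrophages pellet with the stromal vascular cells. Macrophages of fat take up lipid, and some genes of lipid handling, such as Scd1, are used by both cell types. The ob allele of Lep carries a premature stop codon in its coding sequence, so its mRNA can still be made and the Lep probe set does not check the genotype.

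The promoters of the adipokine genes are shown because Adipoq and Retn lay lower in obese than in lean cells while Lep lay higher, although none of the 3 passed the test described below. Each window runs from 250 bases before to 50 bases after the start of the gene, from RefSeq on build GRCm38.p6, on the plus strand. A RefSeq window existed for 5 of the 8 measured members. The windows are chr16:23146286-23146585 for Adipoq, chr8:3655520-3655819 for Retn and chr6:29059971-29060270 for Lep, and capitals mark the matches of 5 motifs searched on both strands.
Adipoq: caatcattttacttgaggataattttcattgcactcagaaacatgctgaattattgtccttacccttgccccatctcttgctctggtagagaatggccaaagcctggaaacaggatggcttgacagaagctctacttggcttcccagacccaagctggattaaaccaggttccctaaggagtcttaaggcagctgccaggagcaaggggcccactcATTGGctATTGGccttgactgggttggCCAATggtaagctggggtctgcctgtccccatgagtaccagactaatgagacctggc
Retn: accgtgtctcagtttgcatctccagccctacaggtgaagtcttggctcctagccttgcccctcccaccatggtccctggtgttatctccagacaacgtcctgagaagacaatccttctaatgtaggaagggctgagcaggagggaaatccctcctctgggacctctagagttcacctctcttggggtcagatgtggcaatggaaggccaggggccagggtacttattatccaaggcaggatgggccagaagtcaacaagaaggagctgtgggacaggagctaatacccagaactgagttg
Lep: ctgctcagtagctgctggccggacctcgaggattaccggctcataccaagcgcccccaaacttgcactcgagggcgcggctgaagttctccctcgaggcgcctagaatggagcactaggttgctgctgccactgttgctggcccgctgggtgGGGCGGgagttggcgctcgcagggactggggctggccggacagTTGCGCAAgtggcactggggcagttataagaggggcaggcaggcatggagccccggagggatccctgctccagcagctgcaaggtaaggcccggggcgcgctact
The motif CCAAT, the CCAAT box, was matched 3 times in the Adipoq window, and 37.4% of the 32851 windows in the table held it. The Lep window held the GC box GGGCGG, found in 35.7% of windows. It also held TTGCNNAA, the type of site bound by C/EBP factors, found in 10.8% of windows. The TATA box motif TATAAA, present in 13.6% of windows, was in none of the 3 windows, nor was AGGTCA, a nuclear receptor half-site present in 16.3%. Retn had no match to any of the 5. These matches describe letters in the window and say nothing about binding.

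The sorted cells carried the macrophage label. All 20 probe sets of 12 macrophage genes lay above the array median on every array. Itgax, which encodes CD11c, ranged from 374.7 to 515.5 intensity units in lean FB and from 827.3 to 1949.6 in lean FBC, and from 329.5 to 614.7 in obese FB and 1523.4 to 2892.8 in obese FBC. FBC exceeded FB for Itgax by 1.49 ± 0.25 (log2, SE) in lean mice (limma adjusted p = 0.0345) and by 2.20 ± 0.25 in obese mice (adjusted p = 0.000118). Array medians were between 35.7 and 50.7 units, which gives a scale for the member values. Signal of the actin control at its 3′ end over that at its 5′ end, a ratio that rises when the RNA or its amplified copies are truncated, was highest on 3 arrays numbered 4. It reached 53.3 in lean FB, 48.0 in lean FBC and 45.0 in obese FB, and was between 1.15 and 10.9 on the other 13 arrays.

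Values per array are the deposited intensities. Their scale differs between probe sets, so changes compare a probe set only between arrays. The array median gives only a rough scale of brightness, and sums over a list are ruled by its brightest probe sets. A change is obese minus lean, or FBC minus FB, of mean log2(intensity + 16) after quantile normalization, with its SE, n = 4 arrays a group. Adjusted p-values come from limma with Benjamini-Hochberg adjustment over all 34945 probe sets, and "rose" or "fell" is used where they were under 0.05. They measure the spread between arrays, which need not be the spread between mice. In sorted bulk RNA a change in the share of cells carrying a transcript and a change in the transcript per cell cannot be told apart.

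Of the 16 member probe sets, 1 of Car3 and 1 of Scd1 lay above the array median on all 16 arrays, and 2 lay above it on none. The probe set that fell furthest was that of Car3, a cytosolic carbonic anhydrase abundant in fat cells. In obese FB 3 of the 16 fell and 1 rose, against 1.33% lower and 0.71% higher among all probe sets. In obese FBC 3 fell and 0 rose, against 2.74% and 3.3%. These calls belonged to Car3 and Ces1d alone. Without the 3 arrays of high actin ratio, 8 fell and 2 rose in FB, where 4.65% of all probe sets were then lower and 3.47% higher. In FBC 7 fell, where 4.70% of all were lower.

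**Figure D1:**
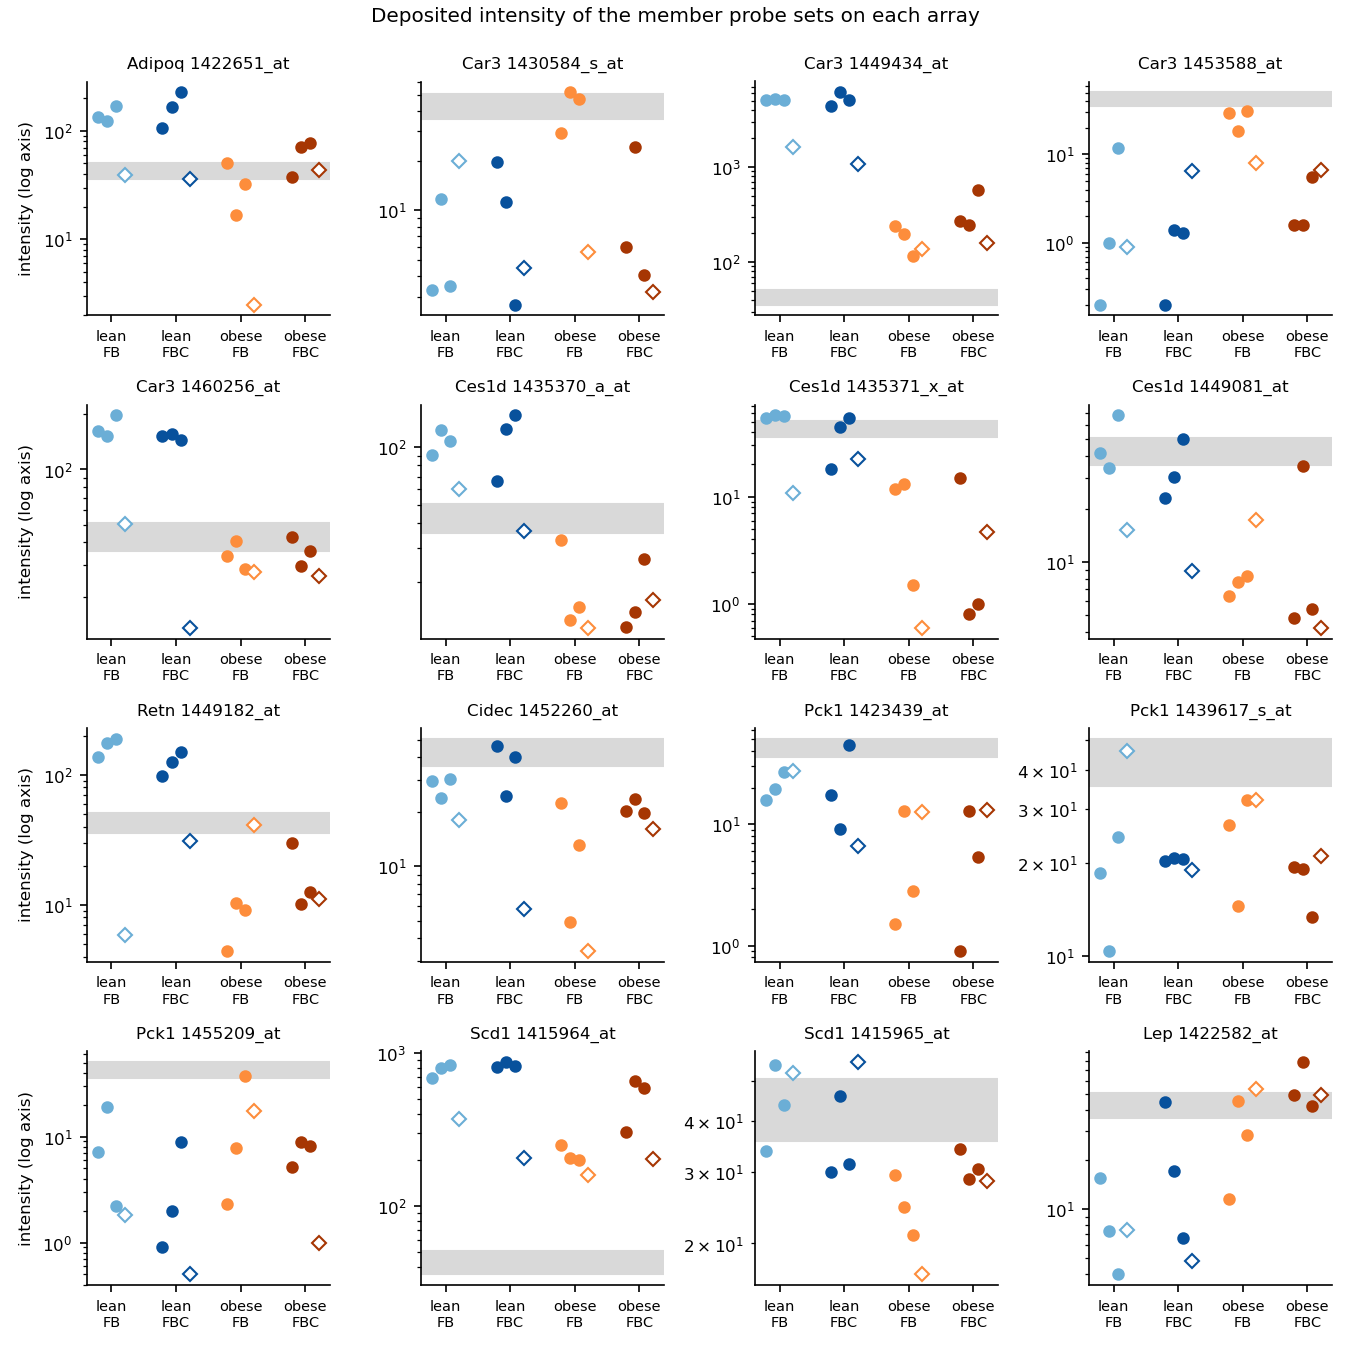
Deposited intensity of the 16 member probe sets on each of the 16 arrays, one panel a probe set with its own logarithmic vertical axis, and the 4 groups along the horizontal axis. Open diamonds are the arrays numbered 4 and the grey band is the range of the array medians, 35.7 to 50.7; the Car3 probe set 1449434_at stands far above the band in lean mice, with array 4 lowest in both lean groups.

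Car3 probe set 1449434_at was above the array median on all arrays. Lean FB arrays 1 to 4 read 5047.7, 5196.0, 5033.0 and 1644.4, and lean FBC arrays read 4417.9, 6139.2, 5123.4 and 1076.0. Obese FB arrays read 241.7, 196.9, 115.7 and 136.7, and obese FBC arrays 270.4, 246.7, 571.8 and 158.8. Every obese array lay below every lean array, and array 4 was the lowest of each lean group. By this probe set Car3 fell by 4.33 ± 0.49 in FB, a 20.1-fold lower level (adjusted p = 0.000109). In FBC Car3 fell by 3.63 ± 0.49, or 12.4-fold (adjusted p = 0.000191). Both calls held in all 20 alternatives in which they were tested.

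A second Car3 probe set, 1460256_at, read 161.9, 152.9, 197.6 and 50.3 in lean FB and 33.6, 40.6, 28.7 and 27.5 in obese FB. Its lean FBC arrays read 151.5, 156.7, 144.3 and 13.6, and its obese FBC arrays 42.8, 29.6, 35.7 and 26.1. Obese FB lay below lean FB on every array, whereas lean FBC array 4 was below all obese FBC arrays. The changes of -1.53 ± 0.45 in FB (adjusted p = 0.0909) and -1.12 ± 0.45 in FBC (adjusted p = 0.161) did not pass. Without lean FB array 4 the first was -1.86 (adjusted p = 0.0212), and without lean FBC array 4 the other was -1.72 (adjusted p = 0.00268). Over 19 alternatives the adjusted p ran from 0.000124 to 0.252 in FB and from 0.000118 to 0.355 in FBC.

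The other probe sets of Car3 went the opposite way in FB, at values mostly below the array median. Probe set 1453588_at read 0.2, 1.0, 11.7 and 0.9 in lean FB and 29.7, 18.3, 30.9 and 8.0 in obese FB, and 0.2 to 6.6 in both FBC groups. By intensity lean FB array 3 exceeded obese FB array 4, but not after normalization (4.70 against 4.74). All 16 values were below the array median. It rose in obese FB by 0.95 ± 0.19 (adjusted p = 0.0134). This call was lost in 4 of 18 alternatives, with an adjusted p of 0.0574 without lean FB array 1, 0.0607 without lean FB array 2, 0.0555 without obese FB array 3 and 0.0665 with only the FB groups in the fit. Probe set 1430584_s_at read 3.3, 11.7, 3.5 and 19.8 in lean FB and 29.4, 51.8, 47.0 and 5.6 in obese FB, a change of 0.91 ± 0.34 (adjusted p = 0.206) with overlapping groups. The suffix _s_at marks probes that can match transcripts of more than one gene. The probe sets of Car3 thus gave no common direction in FB: 1449434_at fell, 1453588_at rose, and the changes of the other pair missed the threshold with opposite signs.

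Ces1d encodes a carboxylesterase that hydrolyses triglyceride in fat and liver, and it was the other gene that fell. Probe set 1435370_a_at read 90.9, 121.6, 106.8 and 60.2 in lean FB and 32.7, 12.7, 14.7 and 11.5 in obese FB. Its lean FBC arrays read 66.3, 123.8, 145.3 and 36.5, and its obese FBC arrays 11.6, 13.9, 26.3 and 16.1. All lean arrays lay above all obese arrays of the same cell type. Ces1d fell by 1.68 ± 0.30 in FB (adjusted p = 0.00539) and by 1.62 ± 0.30 in FBC (adjusted p = 0.00322), again in all 20 alternatives.

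Probe set 1435371_x_at of Ces1d read 53.8, 57.2, 56.9 and 10.9 in lean FB and 11.8, 13.0, 1.5 and 0.6 in obese FB. Lean FBC arrays read 18.2, 44.2, 54.4 and 22.3, and obese FBC arrays 14.9, 0.8, 1.0 and 4.7. Lean FB array 4 fell within the obese FB range, and the FBC groups did not overlap. It fell by 1.32 ± 0.31 in FB (adjusted p = 0.0364) and by 1.25 ± 0.31 in FBC (adjusted p = 0.0230). These calls depended on single arrays, since leaving one out took the adjusted p to as much as 0.127 in FB and 0.0792 in FBC.

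The remaining Ces1d probe set, 1449081_at, read 41.5, 34.3, 68.0 and 15.2 in lean FB and 6.4, 7.7, 8.3 and 17.2 in obese FB, where it changed by -0.96 ± 0.34 (adjusted p = 0.172). Its FBC arrays read 23.0, 30.4, 49.8 and 8.8 in lean and 4.8, 34.9, 5.4 and 4.2 in obese mice (adjusted p = 0.242). The groups overlapped through array 4 of FB and through obese FBC array 2. Ces1d belongs to a cluster of closely similar Ces1 genes, so the probe sets, above all the one with the suffix _x_at, may also bind related transcripts.

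**Figure D2:**
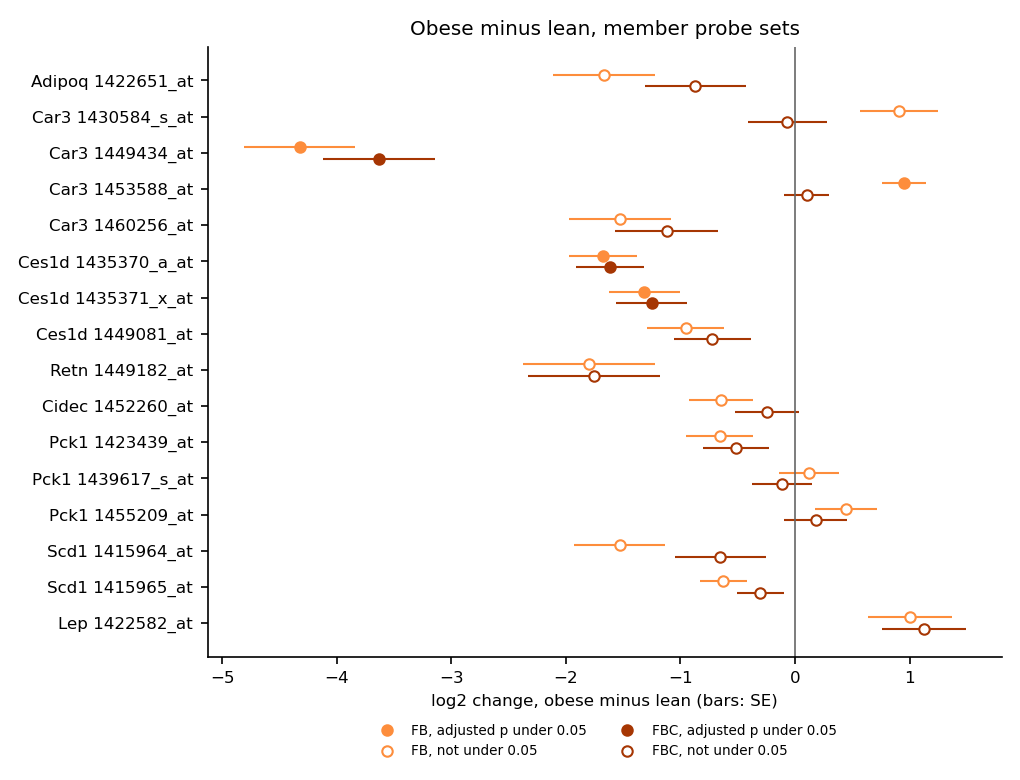
Log2 change, obese minus lean, of each member probe set in FB and in FBC (horizontal axis, points with SE bars). Filled points had an adjusted p under 0.05: the Car3 probe set 1449434_at at -4.33 and -3.63, the Ces1d probe sets 1435370_a_at and 1435371_x_at, and in FB the dim Car3 probe set 1453588_at at 0.95.

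Among the adipokines, Adipoq encodes adiponectin, a secreted hormone made almost entirely by fat cells. Its probe set read 134.9, 122.1, 168.0 and 39.0 in lean FB and 50.9, 16.7, 32.5 and 2.5 in obese FB. Lean FBC arrays read 105.8, 164.4, 227.2 and 35.6, and obese FBC arrays 37.7, 70.7, 78.0 and 43.4. On arrays 1 to 3 all lean values were above all obese values of the cell type, but lean FB array 4 lay among the obese FB arrays, and lean FBC array 4 was below all obese FBC arrays. The changes were -1.67 ± 0.44 in FB (adjusted p = 0.0598) and -0.87 ± 0.44 in FBC (adjusted p = 0.293). Without lean FB array 4 the FB change was -2.01 (adjusted p = 0.0129), and without the 3 arrays of high actin ratio the changes were -1.70 (adjusted p = 0.00242) and -1.30 (adjusted p = 0.00798). Over 20 alternatives the adjusted p ran from 0.00120 to 0.191 in FB, under 0.05 in 7, and from 0.00717 to 0.554 in FBC, under 0.05 in 3.

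Retn encodes resistin, in mice a hormone of white fat cells. Lean FB arrays read 138.1, 176.8, 190.0 and 5.9, and obese FB arrays 4.4, 10.4, 9.1 and 41.1. Lean FBC arrays read 98.5, 125.1, 148.8 and 30.9, and obese FBC arrays 29.9, 10.2, 12.5 and 11.1. In FB the arrays numbered 4 were out of order on both sides, the lean one among the lowest and the obese one the highest of its group, while the FBC groups did not overlap. The changes of -1.80 ± 0.57 in FB (adjusted p = 0.124) and -1.76 ± 0.57 in FBC (adjusted p = 0.0815) did not pass. Without lean FB array 4 the FB change was -2.53 (adjusted p = 0.00226), and without lean FBC array 4 the FBC change was -2.14 (adjusted p = 0.0431). Over 20 alternatives the adjusted p ran from 1.47e-05 to 0.337 in FB and from 9.71e-05 to 0.187 in FBC.

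Lep, the leptin gene itself, was dim. It read 15.4, 7.3, 4.0 and 7.5 in lean FB and 44.5, 17.0, 6.7 and 4.8 in lean FBC. Obese FB arrays read 11.5, 45.3, 28.2 and 53.5, and obese FBC arrays 49.4, 78.6, 42.5 and 49.2. Most obese arrays were above the lean ones, although lean FB array 1 overlapped obese FB array 1 and lean FBC array 1 overlapped obese FBC array 3. Lep changed by 1.0 ± 0.37 in FB (adjusted p = 0.190) and by 1.12 ± 0.37 in FBC (adjusted p = 0.0815), so the higher values did not pass the test. In FBC the adjusted p was 0.0195 without lean FBC array 1, and ran from 0.0195 to 0.208 over 20 alternatives. Its probe set exceeded the array median on 2 obese FB and 3 obese FBC arrays, but on 1 array of lean FBC and 0 of lean FB.

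Of the other lipid enzymes and the lipid droplet gene, no probe set passed the test in FB or FBC. Scd1, the stearoyl-CoA desaturase that makes monounsaturated fatty acids, read 681.8, 794.4, 835.9 and 368.2 in lean FB with probe set 1415964_at, and 250.6, 206.3, 198.6 and 158.4 in obese FB. Lean FBC arrays read 805.3, 874.2, 823.8 and 205.6, and obese FBC arrays 304.4, 655.9, 593.6 and 202.4. All obese FB arrays were below all lean FB arrays, and the FBC groups overlapped through lean array 4. The changes were -1.53 ± 0.40 in FB (adjusted p = 0.0551) and -0.65 ± 0.40 in FBC (adjusted p = 0.396). Without lean FB array 4 the FB change was -1.78 (adjusted p = 0.0179). Over its 20 alternatives the adjusted p of Scd1 in FB ran from 0.00150 to 0.182, and was under 0.05 in 9.

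The other Scd1 probe set, 1415965_at, read 33.6, 54.7, 43.6 and 52.4 in lean FB and 29.5, 24.5, 21.0 and 16.8 in obese FB. It read 29.9 to 55.7 in lean FBC and 28.5 to 34.0 in obese FBC. The FB groups did not overlap and the FBC groups did, with changes of -0.63 ± 0.20 in FB (adjusted p = 0.136) and -0.30 ± 0.20 in FBC (adjusted p = 0.445).

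Cidec encodes a protein of the lipid droplet surface that lets droplets fuse. It read 29.5, 23.9, 30.3 and 18.1 in lean FB and 22.4, 4.9, 13.1 and 3.4 in obese FB. Lean FBC arrays read 46.2, 24.4, 39.9 and 5.8, and obese FBC arrays 20.2, 23.5, 19.8 and 16.1. By intensity obese FB array 1 exceeded lean FB array 4. After normalization it lay below (5.09 against 5.14), and the FB groups did not overlap. Lean FBC array 4 was the lowest of all FBC arrays. Changes of -0.64 ± 0.28 in FB (adjusted p = 0.285) and -0.24 ± 0.28 in FBC (adjusted p = 0.696) did not pass.

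Pck1, the cytosolic phosphoenolpyruvate carboxykinase that fat cells use to make glycerol phosphate, exceeded the array median on at most 1 array by each of its 3 probe sets. Probe set 1423439_at read 15.9 to 27.4 in lean FB and 1.5 to 12.9 in obese FB, though these groups overlapped after normalization. Its FB change was -0.66 ± 0.29 (adjusted p = 0.293). It read 6.6 to 44.8 in lean FBC against 0.9 to 13.1 in obese FBC. Probe set 1439617_s_at changed by 0.12 ± 0.26 (adjusted p = 0.889) and 1455209_at by 0.44 ± 0.27 (adjusted p = 0.491) in FB. The 3 probe sets thus gave no common direction for Pck1.

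Over all 16 member probe sets, the median change in FB was -0.81, beside 0.03 for all probe sets, and 11 estimates were below 0. By unadjusted p under 0.05, 14 of the 16 differed in FB, beside 5167 of 34945. In FBC the median was -0.58, beside 0.03, with 13 estimates below 0, and 7 had an unadjusted p under 0.05, beside 6909 of 34945. After normalization 6 probe sets had all obese FB arrays below all lean FB arrays, against 4.03% of all probe sets, and 4 did so in FBC, against 5.51%. Since the members were named with results of these data known, these counts describe the set and test nothing. A filter for probe sets above the array median on at least 4 arrays kept 9 of the 16, from 6 genes, and left out all those of Cidec and Pck1.

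The arrays numbered 4 stood low for the members within the lean groups. For 9 of 16 probe sets lean FB array 4 was the lowest of its group, beside 33.8% of all probe sets, and for 12 of 16 lean FBC array 4 was, beside 29.9%. In obese FB array 4 was lowest for 6 of 16, beside 30.9%, and in obese FBC for 7, beside 22.0%. On the log2 scale, array 4 deviated from the mean of the other 3 arrays by -1.69 in lean FB and -2.21 in lean FBC for Car3 1449434_at. For Retn these deviations were -2.93 and -1.53. The same lean arrays had the high actin ratios given above. Obese FB array 4 also had a high ratio, at 45.0, whereas obese FBC array 4 had the lowest ratio of all arrays, at 1.15. Whether the ratio accounts for the low member values was not tested. With the log2 actin ratio as a covariate 6 member probe sets fell and 1 rose in FB, beside 2.41% lower and 1.42% higher among all probe sets. In FBC 6 fell, beside 3.10% lower, and no called member changed direction.

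**Figure D3:**
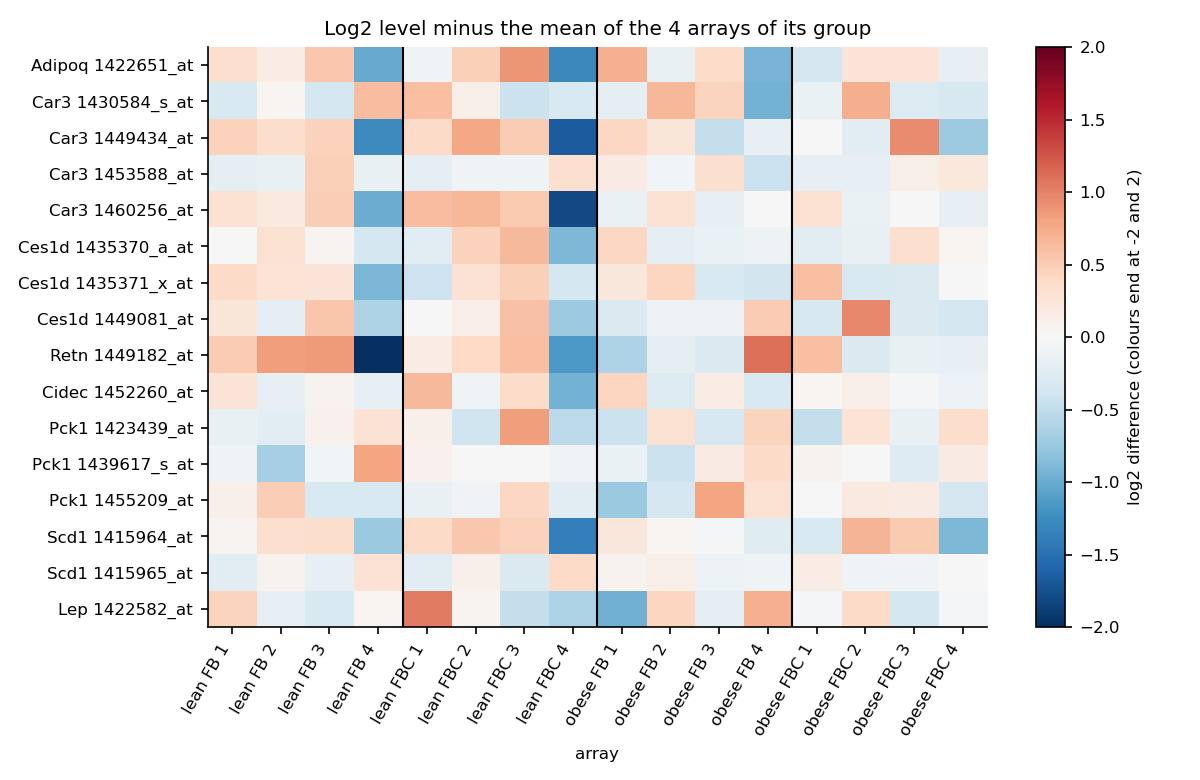
Deviation of each member probe set on each array from the mean of its group, in log2 units after normalization (colour scale), with probe sets as rows and the 16 arrays in their groups as columns. In the columns of lean FB array 4 and lean FBC array 4 most probe sets lie below the group mean, for example at -2.20 for Retn in FB and -1.66 for Car3 1449434_at in FBC.

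Comparing FBC with FB asks whether the adipocyte signal differs with CD11c, and few member probe sets did. In lean mice 0 of 16 probe sets passed by limma and 0 had an unadjusted p under 0.05, while 0.0458% of all probe sets passed. The FBC minus FB estimates ran from -0.37 to 0.41, and the 95% intervals reached from -1.31 to 1.22, so log2 differences beyond these bounds lay outside every interval but smaller ones did not. The lean arrays of equal number had positively correlated residuals, which does not show that they share a mouse. With the replicate block the count of probe sets that passed was 0 as well. Car3 1449434_at gave -0.14 with an interval of -1.16 to 0.88, Retn 0.02 with -1.19 to 1.22, and Adipoq 0.16 ± 0.44 (adjusted p = 0.981).

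In obese mice 1 member probe set passed, the dim Car3 1453588_at, lower in FBC by -0.87 ± 0.19 (adjusted p = 0.0174), against 1.41% lower and 1.9% higher among all probe sets. Adipoq had an estimate of 0.96 ± 0.44 (interval 0.02 to 1.89, adjusted p = 0.282), with obese FB array 4 at 2.5, the lowest Adipoq value of all. Scd1 1415964_at had 0.77 ± 0.40 (adjusted p = 0.342), with 3 of 4 obese FBC arrays above all obese FB arrays. Neither passed the test.

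**Figure D4:**
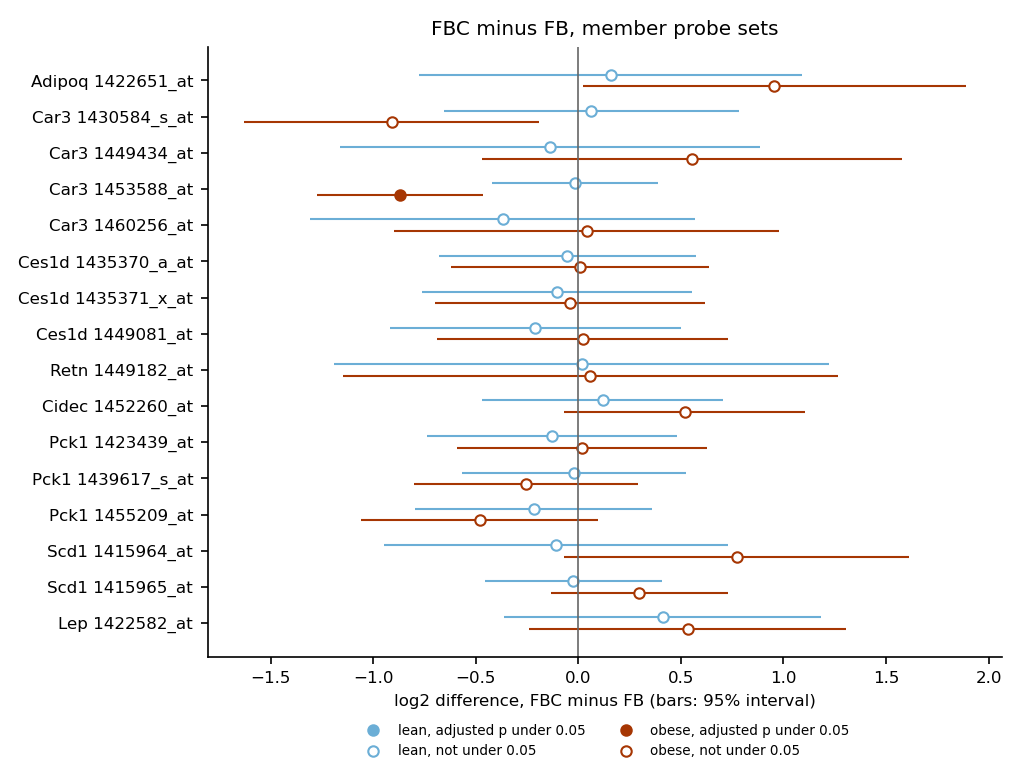
Log2 difference, FBC minus FB, of each member probe set in lean and in obese mice (horizontal axis, points with 95% interval bars). In lean mice every interval includes 0; in obese mice the filled point is Car3 1453588_at at -0.87, and the interval of Adipoq runs from 0.02 to 1.89.

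Whether obesity acted differently on the members in FBC than in FB was tested directly, as an interaction. For the members 0 of 16 probe sets passed by limma, 1 had an unadjusted p under 0.05, and the lowest adjusted p was 0.289, while 0.0286% of all probe sets passed. The interval of Car3 1449434_at was -0.75 to 2.14 around 0.69. The intervals over all members reached from -1.99 to 2.14, so the data neither show a difference between the cell types nor bound it closely.

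Other genes of fat cell metabolism and adipogenesis had calls in both directions. Of 46 probe sets of 26 further adipocyte genes, 4 rose and 2 fell in obese FB. Among all probe sets 0.71% were higher and 1.33% lower. The median change was -0.0030, beside 0.03 for all. In obese FBC 6 rose and 1 fell, against 3.3% higher and 2.74% lower among all, so the 1 lower call is near that share. The median there was 0.07, beside 0.03. Many of these genes are also used by macrophages, and the list was drawn up with earlier results of these data known.

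Fabp4 encodes a fatty acid carrier of fat cells and macrophages. Its probe set 1425809_at was between 9.3 and 93.7 in lean FB and between 104.8 and 615.4 in obese FB, and rose by 2.06 ± 0.49 (adjusted p = 0.0382). In FBC it was between 60.8 and 155.6 in lean and between 560.2 and 1865.5 in obese mice, and rose by 2.70 ± 0.49 (adjusted p = 0.00295). Another Fabp4 probe set, 1451263_a_at, changed by 0.74 in FB (adjusted p = 0.260) and 0.07 in FBC (adjusted p = 0.935). Probe set 1424155_at changed by 1.44 in FB (adjusted p = 0.134) and rose by 2.81 ± 0.47 in FBC (adjusted p = 0.00141). Probe set 1417023_a_at changed by 0.57 in FB (adjusted p = 0.557) and by 1.33 in FBC (adjusted p = 0.0584). The Fabp4 estimates were thus all above 0 but differed in size. Lpl, the lipoprotein lipase, rose by 1.07 ± 0.21 in FB and 1.59 ± 0.21 in FBC with probe set 1431056_a_at, whereas 1415904_at, at 8723.4 to 20422.6 units on all arrays, did not pass in either (adjusted p = 0.308 in FB). Pparg, the nuclear receptor of adipogenesis, rose in FB by 1.14 ± 0.20, and changed in FBC by 0.68 ± 0.20 (adjusted p = 0.0590). Cebpa, a transcription factor of fat and myeloid cells, rose in FBC by 1.68 ± 0.25, and changed in FB by 0.92 ± 0.25 (adjusted p = 0.0683). The difference of the obesity effect between the cell types passed for neither gene (adjusted p = 0.609 for Pparg and 0.492 for Cebpa).

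Dgat1, an enzyme of triglyceride synthesis, fell in FB by 1.73 ± 0.37 and in FBC by 1.50 ± 0.37 with probe set 1445229_at. With it lean FB array 4, of high actin ratio, read 1344.9 and the other lean FB arrays 388.8 to 398.2. The brighter Dgat1 probe set 1418295_s_at did not pass. It changed by -0.84 ± 0.45 in FB (adjusted p = 0.410) and by -1.17 ± 0.45 in FBC (adjusted p = 0.147). The retinol carrier Rbp4 fell in FB by 0.99 ± 0.22, and changed in FBC by -0.50 ± 0.22 (adjusted p = 0.199). Lower FB estimates that missed the threshold were those of Agt, the angiotensinogen gene (-1.80 ± 0.47, adjusted p = 0.0587), and the lipid droplet gene Plin4 (-1.18 ± 0.36, adjusted p = 0.107). The probe sets of Thrsp differed, with FB changes of -1.90 ± 0.49 (1424737_at, adjusted p = 0.0539), -0.15 ± 0.26 (1422973_a_at) and 0.75 ± 0.38 (1444166_at). For Agt the lean FB arrays read 93.5, 127.5, 104.4 and 7.7, and the obese FB arrays 5.5 to 9.3. By intensity array 4 of Agt in lean FB was thus within the obese range, as it was for Adipoq and Retn. After normalization it lay above all obese FB arrays for Agt, whereas the FB groups of Adipoq and Retn still overlapped. Between cell types of obese mice Fabp4 1424155_at (1.75), Lpl 1431056_a_at (1.51) and Cd36 1423166_at (1.20), of a fatty acid transporter, were higher in FBC. Dgat2 1422678_at was lower (-1.02). In all, 4 of the 46 probe sets were higher and 1 lower, against 1.9% higher and 1.41% lower among all probe sets. Other probe sets of these genes did not pass, among them Fabp4 1425809_at (1.53, adjusted p = 0.106) and Fabp4 1451263_a_at (0.27, adjusted p = 0.719). Lpl 1415904_at (-0.02, adjusted p = 0.960) and Cd36 1450883_a_at (0.70, adjusted p = 0.125) did not pass either.

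**Figure D5:**
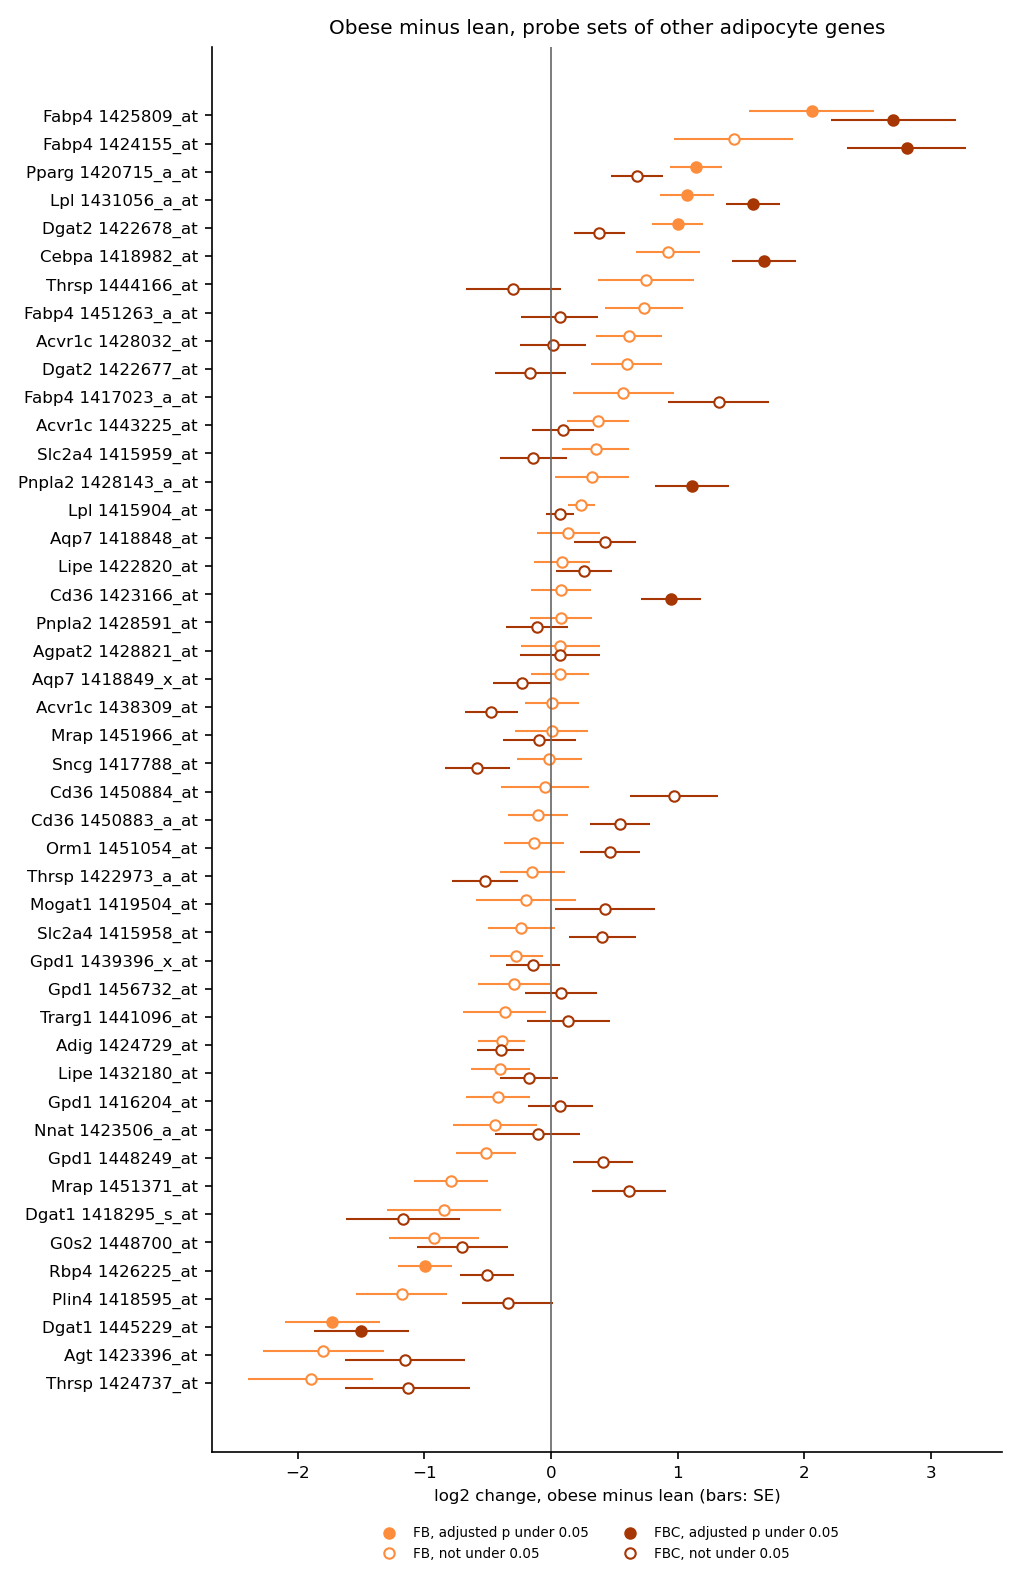
Log2 change, obese minus lean, of the 46 probe sets of other adipocyte genes in FB and in FBC (horizontal axis, points with SE bars), ordered by the FB change. Filled points had an adjusted p under 0.05; Fabp4 1425809_at at 2.06 in FB heads the order, and probe sets of one gene, such as those of Fabp4 and Lpl, lie apart.

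Markers of other cells and programs were read beside the members, and their part in the member changes was not tested. Fatty acid synthesis genes, which include enzymes around Scd1, had 0 of 22 probe sets past the threshold in each of the 5 comparisons. Brown adipocyte markers also had 0 of 17, with at most 4 of 17 above the array median on any array. Skeletal muscle markers had 0 of 10, with at most 2 above it. Among all probe sets 2.04% passed for obesity in FB and 6.04% in FBC. Between the cell types 0.0458% passed in lean and 3.32% in obese mice, and 0.0286% for the interaction. At these shares 0 calls in lists so short do not set them apart. Muscle is another tissue rich in Car3.

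Fibroblast markers fell in FB by 6 of 34 probe sets, beside 1.33% lower among all. They were led by Dpep1 (-3.03 ± 0.67), Cd34 (-2.73 ± 0.64) and Pdgfra (-2.30 ± 0.48). The median change was -0.99, beside 0.03 for all probe sets. In FBC 0 of the 34 passed, beside 6.04% of all, with a median of 0.04. Between the cell types of obese mice 2 probe sets of Gsn were higher in FBC, beside 1.9% of all. Their summed intensity was 46017.5 to 77098.4 in lean FB, with array 4 lowest, and 24069.6 to 34055.5 in obese FB. In FBC it was 44148.1 to 60681.0 in lean mice, again with array 4 lowest, and 30054.8 to 45646.0 in obese mice.

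Mesothelial markers, of the cells that line the fat depot, fell in FB by 4 of 16 probe sets, beside 1.33% lower among all. They were led by Efemp1 (-3.71 ± 0.71), Upk3b (-3.31 ± 0.68) and Upk1b (-2.22 ± 0.46). The median was -1.14, beside 0.03 for all probe sets. The sum of the mesothelial markers was 1330.9 to 5366.8 in lean FB, with array 4 lowest, and 294.3 to 839.8 in obese FB. Efemp1 alone read 678.8 to 3550.2 in lean FB. In FBC 1 of 16 fell, Lrrn4 (-1.04 ± 0.25), beside 2.74% lower among all. The sums there were 571.6 to 3598.3 in lean and 329.6 to 1896.0 in obese mice. Endothelial markers had 1 of 16 lower in FB, Tek (-1.52 ± 0.28), beside 1.33% of all, and 0 in FBC. The macrophage sum stayed between 88366.4 and 138901.6 on all arrays. Of the 20 macrophage probe sets 1 was higher in FB, that of Mpeg1 (0.56 ± 0.12), beside 0.71% of all. In FBC 4 were higher and 1 lower, beside 3.3% and 2.74% of all. Car3 1449434_at and 2 probe sets of Ces1d fell in both cell types. Fibroblast calls were in FB and mesothelial calls in both. The interaction test passed for 0 of the 34 fibroblast probe sets by limma, beside 0.0286% of all probe sets. Whether the member changes follow those of the other cells was not tested.

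The genes whose levels over the 16 arrays were most like those of Adipoq were sought among 21084 probe sets above the array median on at least 4 arrays. Members and the symbols of clones and gene models were left out of this ranking, and each gene was ranked by its highest probe set. The highest Pearson correlations were then those of Aoc3 (0.936), a surface amine oxidase, Ccni (0.935), Cd209b (0.935) and Lyve1 (0.930), a hyaluronan receptor. Ier5, Tppp, Ebf1, Ltc4s, Mxra7 and Slc7a13 followed, down to 0.912. Among the members Scd1 1415964_at was most like it at 0.902, followed by Cidec at 0.831, Ces1d 1435370_a_at at 0.827 and Car3 1449434_at at 0.826, while Lep was at -0.472. The 16 points share their group differences and the low arrays numbered 4, so the order is a description.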

How the data were processed

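RNA of sorted FB and FBC macrophages was hybridised to 16 Affymetrix Mouse Genome arrays. The deposited values are linear intensity per probe set. The submitters' processing notes name Affymetrix Expression Console. How probes were summarized, the software version and the build were not given in the sources used here. Every array had a 2% trimmed mean of 250, and no detection calls were used.

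Values were taken as log2(intensity + 16) and quantile-normalized, because log2 array medians ran from 5.69 to 6.06. All 34945 probe sets of 1 symbol, of 45101, were tested singly with no filter, since a filter lets a member pass through its higher group. One limma model of 4 groups (lmFit, eBayes with trend, 12 residual degrees of freedom) gave 5 comparisons, with p-values adjusted by Benjamini-Hochberg and a threshold of 0.05. The model was tested on simulated data. Fits used limma 3.58.1 under R 4.3.3, and summaries and plots used Python 3.11.15 with matplotlib 3.10.9. The number of arrays limits the precision.

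The members and lists were chosen with earlier results of these data known. Named genes were all members, the sort markers, up to 3 called probe sets in each direction of each of 9 lists per comparison, and the 10 genes most like Adipoq. Some other adipocyte genes (Agt, Thrsp, Plin4 and further probe sets of Fabp4, Lpl, Cd36 and Dgat1) were named after their values were seen.

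Residual correlations between equally numbered lean FB and FBC arrays were 0.148, 0.224, 0.284 and 0.583. Each was over 0.1, so the numbers were read as pairs there, a reading from the data and not from the labels. That limit does not single out shared mice. Equally numbered lean and obese arrays, which cannot share a mouse, reached 0.259 in FB (number 4) and 0.257 in FBC (number 3). Lean FB array 1 was most like lean FBC array 3, and both lean arrays numbered 4 had high actin ratios. In obese mice the correlations between equally numbered FB and FBC arrays were 0.302, 0.0388, -0.0928 and -0.151. The alternatives with a block still joined obese FB and FBC arrays by number, in the obese cell type comparison and in the interaction. There the joining is only a setting. Alternatives were 12 other settings and each of 16 arrays left out in turn, read for the comparisons that hold that array. Probe sets with any other number of symbols were left out.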

Additional observations from a re-analysis of the deposited data

Results flagged for a closer look

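In 10 of the 64 groups of 4 arrays (15.6%) 1 array stood apart from the other 3 by Dixon's criterion, which chance meets in about 5% of groups; probe sets of a gene and the arrays are shared between groups, so the 64 are not independent. Levels are log2 after normalization. Lean FB array 4 was the low one for Car3 1449434_at (10.65), Ces1d 1435371_x_at (4.82) and Retn (4.51). Lean FBC array 4 was the low one for Car3 1449434_at (10.12), Car3 1460256_at (4.95) and Scd1 1415964_at (7.91). The other 4 were high values: lean FB array 3 for Car3 1453588_at (4.70), obese FB array 1 for Ces1d 1435370_a_at (5.43), obese FBC array 2 for Ces1d 1449081_at (5.66) and obese FBC array 1 for Retn (5.57). The 6 low values all lay on arrays whose actin ratio was 48.0 or 53.3. No value of obese FB array 4, at a ratio of 45.0, was flagged.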

How the results depend on the processing

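No member change that had passed reversed under any alternative. The 4 FB calls became 11 with array weights, 7 with the replicate block, 7 with the actin ratio as covariate and 10 without the 3 arrays of high actin ratio, and 2 to 8 when 1 array was left out: 8 without lean FB array 4, and 2 without lean FB array 1, lean FB array 2 or obese FB array 3. The 3 FBC calls became 8 with array weights, 6 with the actin covariate and 7 without the high-ratio arrays, and 2 to 5 when 1 array was left out, with 5 without lean FBC array 4. The single call between cell types in obese mice became 0 with the filter on low values, which drops that probe set, 0 with a pseudocount of 1, 2 with array weights and 2 without the high-ratio arrays, and 0 to 1 when 1 array was left out, with 0 without obese FB array 3, obese FBC array 1 or obese FBC array 2. The share of all probe sets that passed moved too: in FB from 2.04% to 12.0% with array weights, 3.16% with the block, 3.83% with the covariate and 8.12% without the high-ratio arrays, and in FBC from 6.04% to 11.7% with array weights, 6.17% with the covariate and 9.77% without those arrays. Without lean FB array 4 the share in FB was 5.10%. Without lean FB array 1, lean FB array 2 or obese FB array 3 it was 1.01%, 0.847% or 0.987%. In FBC it was 5.31% without lean FBC array 4. Between cell types of obese mice it was 3.32% in the main fit, 6.63% with the filter and 3.09% with a pseudocount of 1. It was 6.62% with array weights and 4.87% without the high-ratio arrays. Leaving out obese FB array 3, obese FBC array 1 or obese FBC array 2 gave 2.27%, 2.69% or 1.77%. Of single member changes, 17 lost and 7 gained their call when 1 array was left out, among 768, and 4 lost and 42 gained it under the other settings. The cause of these moves was not tested. The lean cell type comparison and the difference of the obesity effect had 0 calls under every alternative run. Numbers shared between lean and obese mice do not pair them, and the block is given there only as a fit. Most member probe sets lay near or below the array median, where changes are compressed by the pseudocount.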
